A study of Emberiza melanocephala with 4 samples.

Results

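The genes described here are 3 translation initiation factors, EIF4A2, EIF4G2 and EIF5, and 2 ribosomal proteins, RPLP0 and RPS3, in seasonal transcriptomes of a migratory songbird, the black-headed bunting (Emberiza melanocephala). They are 5 of the 278 gene symbols that the transcript files hold, and they were chosen by symbol with their listed levels already known, so those levels are a description and carry no test. The libraries are 1 each of long-day (LD) liver, LD hypothalamus, short-day (SD) liver and SD hypothalamus, from birds caught in the wild. The labels give no age, sex or number of birds. The seasonal state recorded for the library titled LD hypothalamus is short day and for that titled SD liver long day, so the groups follow the titles and every library is called by its title. With 1 library per group there is no replicate check, no error and no p-value for any difference.

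Translation of most messenger RNAs starts when a helicase unwinds the leader of the message, a scaffold of the eIF4G family brings the small ribosomal subunit, and the subunit scans to a start codon, where hydrolysis of GTP on eIF2 commits it. EIF4A2 encodes a form of the DEAD-box helicase eIF4A that is abundant in brain. EIF4G2 encodes a scaffold related to eIF4G that lacks the binding site for the cap-binding protein eIF4E. EIF5 encodes the protein that activates GTP hydrolysis by eIF2. RPLP0 anchors the stalk of the large ribosomal subunit, which recruits elongation factors, and RPS3 sits on the small subunit where the message enters. These roles are known from mammals and yeast.

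The depth was low, with 17.8, 13.3, 20.8 and 15.8 aligned megabases in LD liver, LD hypothalamus, SD liver and SD hypothalamus. The files list 186, 131, 67 and 36 loci with a gene symbol in these libraries. FPKM is coverage per base scaled to the aligned sequence of the library, so it is a level per length. A gene is listed either on a transcript of the flycatcher annotation (a reference transcript) or on a transcript assembled from the reads. In every listed reference transcript of more than 1 exon, each exon held aligned bases (130 of 130 in LD liver, 90 of 90 in LD hypothalamus, 39 of 39 in SD liver and 23 of 23 in SD hypothalamus). Assembled transcripts had a coverage of at least 2.50 in LD liver, 2.50 in LD hypothalamus, 2.50 in SD liver and 2.51 in SD hypothalamus. A gene that is not listed is therefore not necessarily at 0.

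Tissue markers went against the tissue names of some libraries. Of 15 neuron markers, 4 were listed in LD liver (561 FPKM in sum) and 2 in LD hypothalamus (329 FPKM in sum), with none listed in SD liver or SD hypothalamus. Of 10 glial markers, 2 were listed in LD liver (331 FPKM in sum) and in LD hypothalamus (133 FPKM in sum) and none in the libraries labelled SD. Of 15 hepatocyte markers only APOA1 was listed, at 20.9 FPKM in LD liver, 655 FPKM in SD liver and 327 FPKM in SD hypothalamus. ALB, the defining secreted protein of hepatocytes, was listed by symbol in no file. Genes on loci without a symbol could not be matched to any marker. Of all 278 gene symbols, 183 were listed in LD liver, 126 in LD hypothalamus, 62 in SD liver and 34 in SD hypothalamus. With so few symbols listed under SD, the absence of a few neuron and glial markers there says little. The listed markers differ between the libraries labelled LD and SD, as do the levels below. The part of tissue content in any of the differences was not tested. Fewer cells of a type and less RNA per cell cannot be told apart in such bulk libraries.

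EIF4A2 (ENSFALG00000008230) was the only one of these 5 genes listed in all 4 libraries, and in each it stood on the same reference transcript of 11 exons and 2687 bases (plus strand of scaffold JH603178.1, 11100757 to 11109425, flycatcher build FicAlb_1.4). Its level was 430 FPKM in LD liver, 394 FPKM in LD hypothalamus, 144 FPKM in SD liver and 271 FPKM in SD hypothalamus. Both libraries labelled LD were higher than both labelled SD, and SD liver was the lowest. Among the loci with a symbol, EIF4A2 ranked 2 of 186 in LD liver, 1 of 131 in LD hypothalamus, 3 of 67 in SD liver and 4 of 36 in SD hypothalamus. These levels rest on 20530 aligned bases in LD liver, 14054 in LD hypothalamus, 8028 in SD liver and 11491 in SD hypothalamus.

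**Figure D1:**
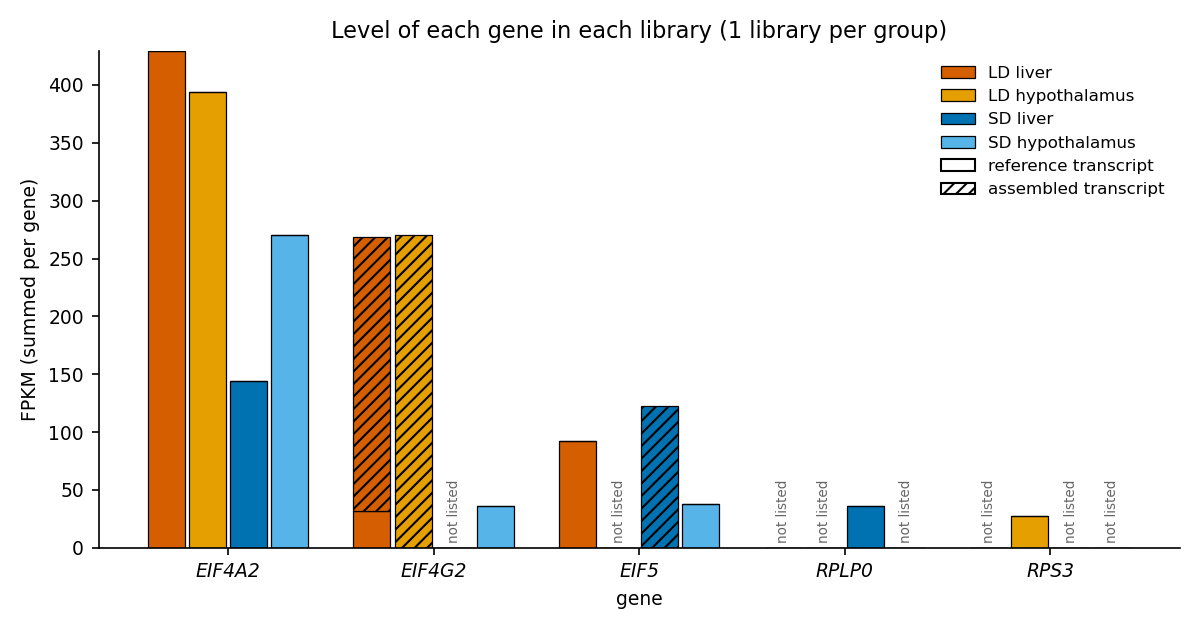
Summed FPKM (vertical axis) of the 5 genes in the libraries labelled LD liver, LD hypothalamus, SD liver and SD hypothalamus, as bars from 0, plain for reference transcripts and hatched for assembled ones. EIF4A2 has a bar in every library, from 144 to 430 FPKM, while RPLP0 and RPS3 have 1 bar each.

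The level of EIF4A2 in SD liver was not uniform along the transcript. Over exons 2 to 5, counted from the 5′ end and 488 bases long together, EIF4A2 had 720 FPKM in LD liver, 773 FPKM in LD hypothalamus, 538 FPKM in SD liver and 625 FPKM in SD hypothalamus. The 4 libraries were close to one another there. Over exons 7 to 10, 452 bases together, the gene had 1008 FPKM in LD liver, 1009 FPKM in LD hypothalamus, 57.3 FPKM in SD liver and 506 FPKM in SD hypothalamus. SD liver stood far below the other libraries in this stretch. The ranges of exons were chosen after the values were seen.

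The fall in SD liver came between exon 5 and exon 8. Mean coverage per base in that library was 13.6, 10.9, 10.7 and 11.2 in exons 2, 3, 4 and 5. It was 4.05 in exon 6, 1.71 in exon 7 and 0.884 in exon 8. Exons 9 and 10 each had a coverage of 1, and the long exon 11 (1152 bases) had 0.934. Of all aligned bases of EIF4A2, exons 2 to 5 held 30.4% in LD liver, 35.6% in LD hypothalamus, 68.0% in SD liver and 41.9% in SD hypothalamus. Exons 7 to 10 held 39.5% in LD liver, 43.1% in LD hypothalamus, 6.70% in SD liver and 31.4% in SD hypothalamus. The 538 bases of exons 7 to 10 in SD liver are few, so the level there is known only roughly.

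**Figure D2:**
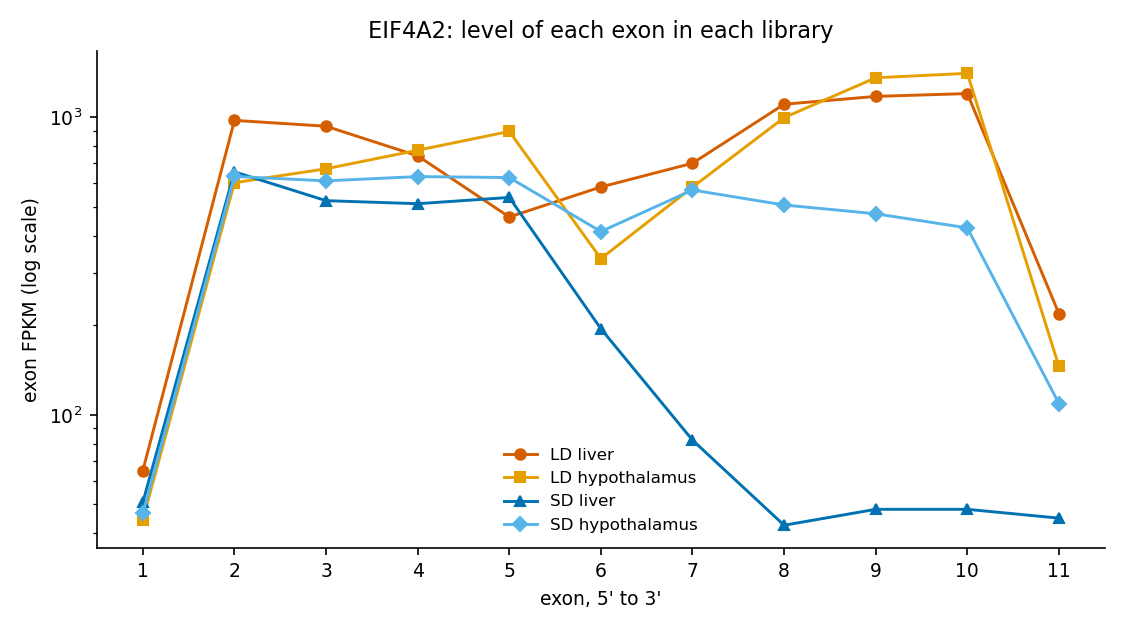
Level of each of the 11 exons of EIF4A2 (exon FPKM, log axis) from the 5′ to the 3′ end, 1 line per library. The 4 lines lie within 2-fold of each other from exon 1 to exon 5, and the SD liver line then falls to 42.5 FPKM at exon 8 while the other lines stay at or above 335 FPKM up to exon 10.

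The terminal exons of EIF4A2 had lower levels than the stretch of exons 2 to 10 in all 4 libraries. Exon 1 had 64.9 FPKM in LD liver, 44.4 FPKM in LD hypothalamus, 50.8 FPKM in SD liver and 46.6 FPKM in SD hypothalamus. Exon 11 had 219 FPKM in LD liver, 145 FPKM in LD hypothalamus, 44.9 FPKM in SD liver and 109 FPKM in SD hypothalamus. Level per length over the whole transcript is thus below that of the stretch of exons 2 to 10 in every library. Exons 2 to 10 had 829 FPKM in LD liver, 829 FPKM in LD hypothalamus, 295 FPKM in SD liver and 552 FPKM in SD hypothalamus. Single internal exons did not all lie above the whole transcript. In SD liver exons 7, 8, 9 and 10 had 82.2, 42.5, 48.1 and 48.1 FPKM, below its 144 FPKM, while exons 2 to 6 were above it. In LD hypothalamus exon 6 had 335 FPKM, below the 394 FPKM of the whole transcript.

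Other transcripts with 6 or more exons give a scale for this unevenness. For each reference transcript, the internal exons were split into a 5′ part and a 3′ part with the same number of exons, leaving out a middle exon, and the coverage of the 3′ part was divided by that of the 5′ part, which for EIF4A2 compares exons 7 to 10 with exons 2 to 5. The log2 ratio for EIF4A2 was 0.49 in LD liver, 0.39 in LD hypothalamus, -3.23 in SD liver and -0.30 in SD hypothalamus. In SD liver the other 9 transcripts ranged from -1.18 to 1.71, so that EIF4A2 lay below all of them, with 9.39-fold less coverage in its 3′ part. In the remaining libraries it lay inside the range of the others, which was -1.09 to 1.70 over 38 transcripts in LD liver, -2.12 to 1.72 over 26 in LD hypothalamus and -1.51 to 0.49 over 7 in SD hypothalamus. RPLP0, among the 9 others of SD liver, stood at -0.64, EIF5 stood at 0.08 in SD hypothalamus and EIF4G2 at -0.13 in that library. In LD liver EIF5 stood at 0.43 and the reference transcript of EIF4G2 at 0.63, and RPS3 stood at 0.86 in LD hypothalamus.

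**Figure D3:**
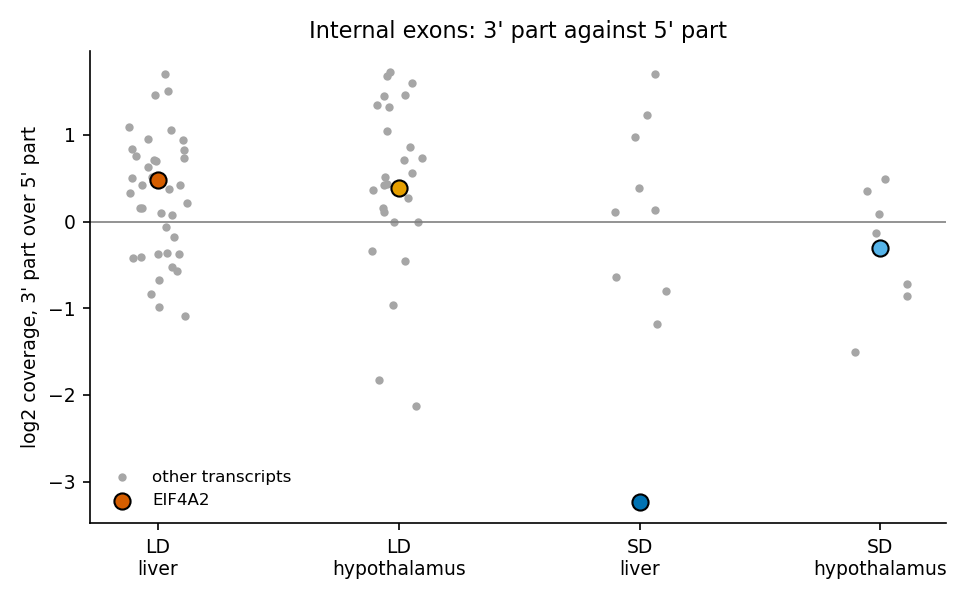
Log2 ratio of coverage in the 3′ part over the 5′ part of the internal exons (vertical axis) for each reference transcript of 6 or more exons (grey points) and for EIF4A2 (large points), by library. EIF4A2 lies within the grey points except in SD liver, where it is at -3.23 and the lowest grey point at -1.18.

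LD liver and SD liver share a tissue label and differ in their season label. Their markers differ as well, with APOA1 at 20.9 FPKM in LD liver and 655 FPKM in SD liver. Neuron markers were listed in LD liver and not in SD liver, which lists fewer symbols of any kind. The state recorded for SD liver is long day. The part of season in the ratios of this pair was not tested. EIF4A2 had a log2 ratio of 1.57 over the whole transcript with a pseudocount of 1, which is 2.97-fold higher in LD liver. It was 1 of the 2 genes of this set listed in both libraries and the only one at least 2-fold higher, where 18.9% of all 53 loci were higher by 2-fold or more and 18.9% lower by as much. The ratio depended on the stretch of the transcript, with 0.42 over exons 2 to 5 and 4.11 over exons 7 to 10. Exon by exon the log2 ratio ran from -0.22 in exon 5 to 4.70 in exon 8. Exons 1 to 5 were each within 2-fold. The median log2 ratio of all loci was -0.36, so that EIF4A2 stood 1.93 above it. The 53 loci split into 10 higher and 10 lower by 2-fold, and into 16 and 7 after centring on that median.

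In the comparison of LD hypothalamus with SD hypothalamus the log2 ratio of EIF4A2 was 0.54, within 2-fold, and 0.81 above the median of all loci (-0.27). Exons 2 to 5 gave 0.31 and exons 7 to 10 gave 0.99. The exons with the highest ratios were exon 9 (1358 FPKM in LD and 474 FPKM in SD hypothalamus) and exon 10 (1406 FPKM in LD and 425 FPKM in SD hypothalamus). Exon 6 had the lowest log2 ratio, -0.30. The excess in LD hypothalamus thus lay mainly in exons 8 to 10.

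Between the tissue names, EIF4A2 was lower in SD liver than in SD hypothalamus, at a log2 ratio of -0.91, which is within 2-fold. Over exons 2 to 5 the ratio was -0.22 and over exons 7 to 10 it was -3.12. In LD liver and LD hypothalamus the levels were alike, at 0.12 over the whole transcript, -0.10 over exons 2 to 5 and -0.002 over exons 7 to 10. Single exons of the LD pair still differed, from -0.95 in exon 5 to 0.80 in exon 6. The neuron and glial markers given above were listed under both tissue names in the libraries labelled LD. They were listed under neither in those labelled SD, which list fewer symbols of any kind.

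EIF4G2 (ENSFALG00000001022; minus strand of scaffold JH603238.1, 3862600 to 3872085) was listed by its symbol at 31.4 FPKM in LD liver and 36.2 FPKM in SD hypothalamus. Those values alone hide most of its reads. In LD liver an assembled transcript without a gene name shares its exons and has 237 FPKM, and in LD hypothalamus another has 270 FPKM. Summed over all transcripts whose exons overlap, EIF4G2 had 269 FPKM in LD liver, 270 FPKM in LD hypothalamus and 36.2 FPKM in SD hypothalamus, and it was not listed in SD liver. The libraries labelled LD were alike, and SD hypothalamus was lower.

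The EIF4G2 transcripts differ in extent, so the 16 exons of identical coordinates in all 3 libraries (2307 bases) were compared as well, a choice made after seeing the data. Over these exons EIF4G2 had 307 FPKM in LD liver, 289 FPKM in LD hypothalamus and 53.1 FPKM in SD hypothalamus. Coverage per base of single exons ran from 2.80 to 9.23 in LD liver, from 1.91 to 8.07 in LD hypothalamus and from 0.418 to 1.498 in SD hypothalamus. The lowest exon of either LD library thus had more coverage than the highest exon of SD hypothalamus, on a measure not scaled to the library. The LD exons come mainly from assembled transcripts, which were listed only at a mean coverage of 2.50 or more. The reference transcript of SD hypothalamus was listed at 0.572. Much of this separation thus follows from the listing, and it is not separate support. The exons share reads and are not replicates.

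In the comparison of LD hypothalamus with SD hypothalamus EIF4G2 had a log2 ratio of 2.87, which is 7.29-fold higher in LD, and of 2.43 over the 16 shared exons. All 16 exons were higher in LD hypothalamus, by log2 ratios from 0.96 to 3.88. It was 1 of the 2 genes of this set listed in both libraries and the only one at least 2-fold higher, where 21.9% of all 32 loci were higher by 2-fold or more and 12.5% lower by as much. Of those loci 7 were higher and 4 lower, and 8 and 2 on a scale of aligned bases per megabase, which is not divided by length. In LD hypothalamus EIF4G2 stood on an assembled transcript alone, and no such transcript was listed there below 189 FPKM. In SD hypothalamus it stood on a reference transcript at 36.2 FPKM. A ratio above 2-fold thus followed from the kinds of transcript listed, and the call of EIF4G2 is no support for a difference. Between LD liver and LD hypothalamus the ratio was -0.01 over whole loci and 0.09 over the shared exons, with 8 exons higher in LD liver and 8 lower. Of all 142 loci of that comparison 14.1% were higher by 2-fold or more and 12.7% lower by as much, and neither EIF4A2 nor EIF4G2 was among them.

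The assembled transcripts of EIF4G2 ran past the 3′ end of the flycatcher model. The last exon of the reference transcript is 66 bases long, while the assembled last exon was 501 bases in LD liver and 584 bases in LD hypothalamus, which is 435 and 518 bases beyond the annotated end. Mean coverage of that exon was 2.50 in LD liver and 2.83 in LD hypothalamus, so the added stretch lies on reads in both. At the 5′ end, the reference exon 1 of 1034 bases had a coverage of 0.0426 in LD liver and 0.0213 in SD hypothalamus. In LD liver the assembled transcript had instead an exon of 94 bases (coverage 4.02) spliced to 66 bases at the inner end of that exon (coverage 4). The LD hypothalamus transcript began inside exon 3, of which it kept 60 bases, and had 18 exons, against 21 in the LD liver assembly and 20 in the reference.

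The intron between exons 12 and 13 of EIF4G2 holds SNORD97, a small nucleolar RNA (171 bases annotated; minus strand of JH603238.1, 3866216 to 3866386). It was listed at 16.1 FPKM in LD liver and 43.6 FPKM in LD hypothalamus, on 49 and 99 aligned bases. It was listed in neither library labelled SD. These are too few bases to order the libraries labelled LD.

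**Figure D4:**
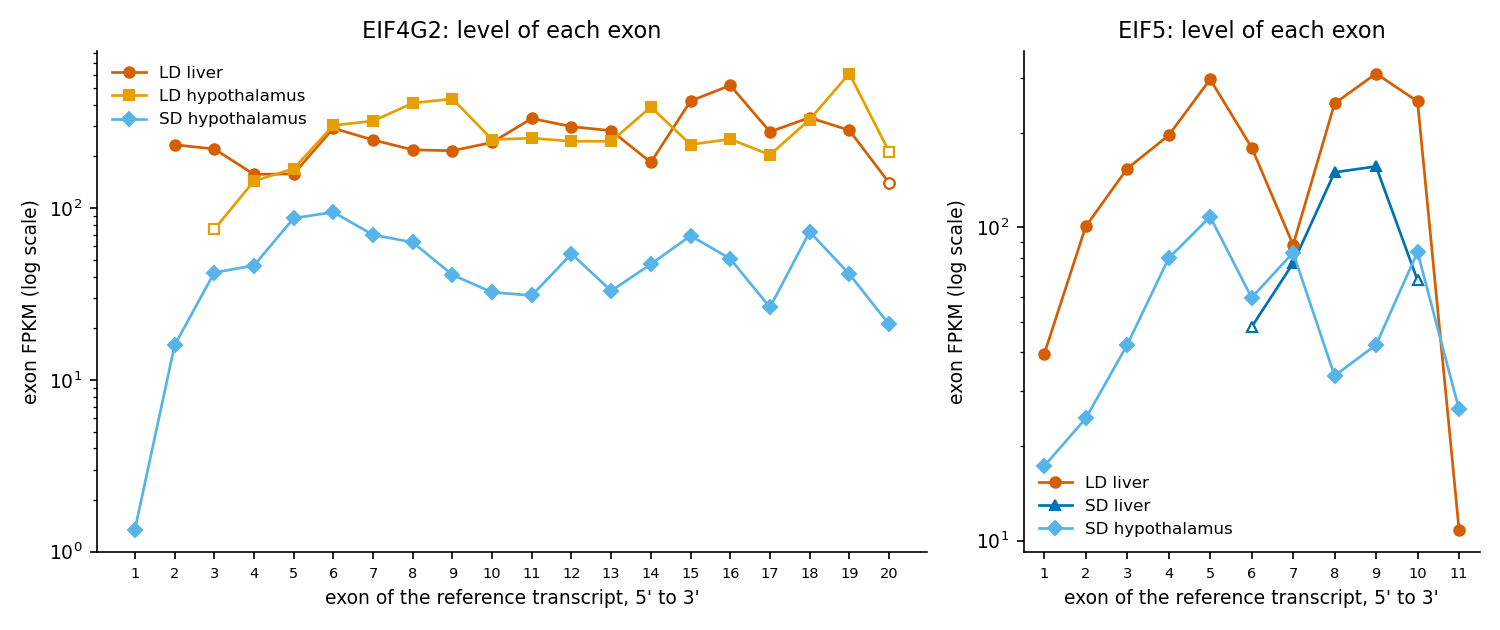
Level of each exon (exon FPKM, log axis) of EIF4G2 and EIF5 along the exons of the reference transcript, 1 line per library that lists the gene. Open points mark exons whose ends differ from the reference, for which the assembled exon alone is plotted, and the reference exon 1 of EIF4G2 is not drawn for LD liver. The EIF4G2 lines of LD liver and LD hypothalamus lie above that of SD hypothalamus at every exon drawn for both, while SD liver has EIF5 only from exon 6 to exon 10.

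EIF5 (ENSFALG00000002816; plus strand of scaffold JH603184.1, 6507213 to 6516359) had 92.2 FPKM in LD liver and 37.6 FPKM in SD hypothalamus on a reference transcript of 11 exons and 3405 bases. In SD liver it was represented by an assembled transcript of 534 bases that begins inside exon 6 and ends inside exon 10, at 123 FPKM. It was not listed in LD hypothalamus. By FPKM SD liver was thus the highest, but its transcript leaves out exons 1 to 5 and exon 11. That value also lies just above the lowest level of any assembled transcript listed in SD liver, 120 FPKM. Coverage of exon 1 was 0.702 in LD liver and 0.274 in SD hypothalamus, and that of exon 11 was 0.193 in LD liver and 0.415 in SD hypothalamus.

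Only exons 7, 8 and 9 of EIF5 (486 bases) are complete in all 3 libraries. Over them EIF5 had 217 FPKM in LD liver, 128 FPKM in SD liver and 52.7 FPKM in SD hypothalamus. LD liver was the highest and SD hypothalamus the lowest over this stretch, which was chosen after the models were seen. The assembled transcript of SD liver had a coverage of 2.55, and none was listed there below 2.50. The reference transcript of SD hypothalamus was listed at 0.593. The order of SD liver and SD hypothalamus thus largely follows from the listing. Exon 7 was nearly level, with 88.0 FPKM in LD liver, 76.9 FPKM in SD liver and 83.1 FPKM in SD hypothalamus. Exons 8 and 9 carried the differences. Exon 8 had 249 FPKM in LD liver, 150 FPKM in SD liver and 33.6 FPKM in SD hypothalamus, and exon 9 had 310 FPKM in LD liver, 157 FPKM in SD liver and 42.2 FPKM in SD hypothalamus.

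The direction of the EIF5 ratios depended on the scale. In LD liver against SD liver the log2 ratio was -0.41 in FPKM, 0.75 over the shared exons and 2.24 in aligned bases per megabase, a scale on which the longer transcript gathers more bases. In SD liver against SD hypothalamus it was 1.68 in FPKM, 1.27 over the shared exons and -0.95 in aligned bases per megabase. EIF5 was 1 of the 2 genes of this set listed in both SD libraries and the only one at least 2-fold higher by FPKM, where 7.46% of all 67 loci were higher by 2-fold or more and 13.4% lower by as much. No assembled transcript was listed in SD liver below 120 FPKM. Any assembled EIF5 transcript there would thus be more than 2-fold above the 37.6 FPKM of SD hypothalamus. The call followed from the listing and is no support for a difference. The shared exons hold 486 of the 534 bases of the SD liver transcript, so their ratio of 1.27 is not separate support. Of the shared exons of EIF5 in that pair, 2 were higher and 1 was lower in SD liver, with log2 ratios from -0.11 to 2.16.

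**Figure D5:**
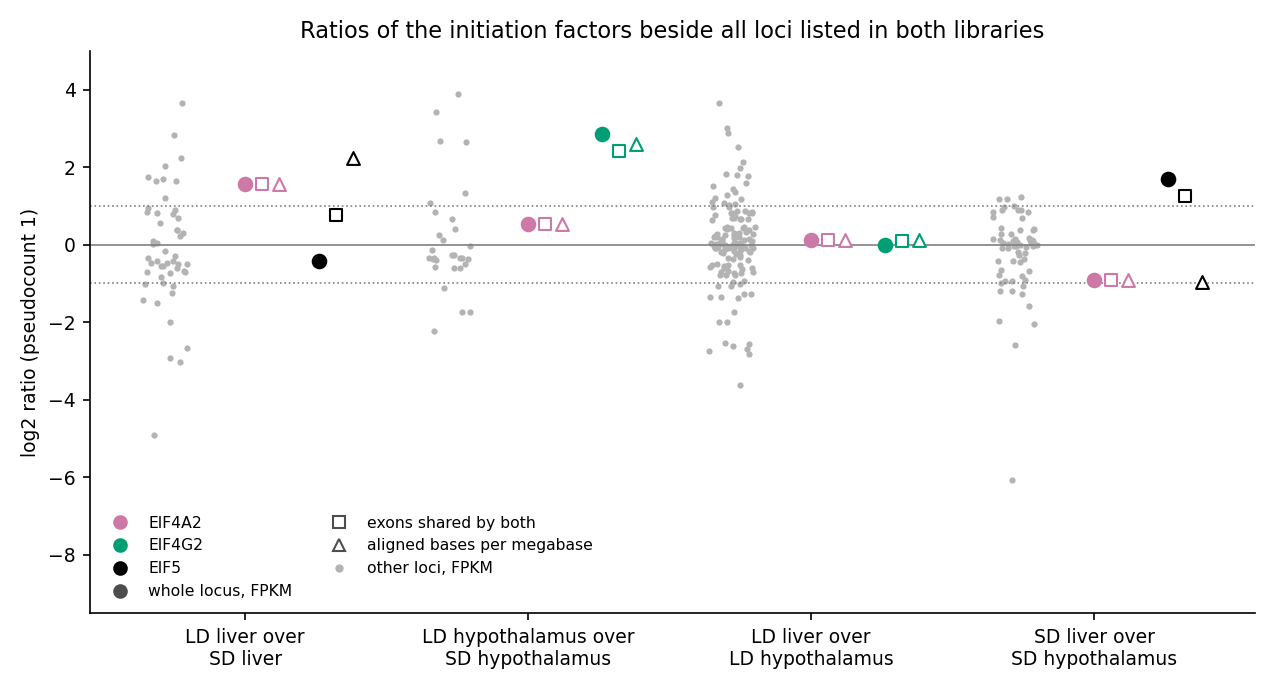
Log2 ratios with a pseudocount of 1 (vertical axis) of EIF4A2, EIF4G2 and EIF5 in the 4 comparisons, beside all other loci listed in both libraries (grey points). Filled circles are FPKM of the whole locus, squares the exons shared by both libraries and triangles aligned bases per megabase, and dotted lines mark 2-fold. The 3 marks of EIF4A2 coincide, and those of EIF5 lie on both sides of 0, as in SD liver over SD hypothalamus at 1.68, 1.27 and -0.95.

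The ribosomal proteins were each listed in 1 library. RPLP0 (ENSFALG00000007629; plus strand of scaffold JH603179.1, 3822615 to 3826598) had 36.4 FPKM in SD liver, on 1344 aligned bases of a reference transcript of 8 exons and 1775 bases. Coverage was 0.679 in exon 1, 2 in exon 2, 1.34 in exon 3 and 1.16 in exon 4. Exons 5, 6 and 7 each had a coverage of 1, and exon 8, 649 bases long, had 0.137. Exons 3 to 7 were thus covered about once.

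RPS3 (ENSFALG00000007956; minus strand of scaffold JH603312.1, 6935 to 12581) had 27.8 FPKM in LD hypothalamus, on 524.5 aligned bases of a reference transcript of 6 exons and 1421 bases. From the 5′ end its exons had a coverage of 0.0451, 0.5, 0.5, 0.730, 1 and 0.276. StringTie divides a read that aligns to several places among them, and the coverage of 0.5 in exons 2 and 3 is not that of a whole read along an exon. RPS3 ranked 70 of 131 loci with a symbol in LD hypothalamus, and RPLP0 ranked 16 of 67 in SD liver. No ratio can be formed for either gene. Reads of ribosomal proteins and of EIF4A2 can also fall on near-identical copies such as processed pseudogenes or the paralogue EIF4A1, so these levels are uncertain in that respect. Aligned bases per exon were whole numbers for EIF4A2 in every library, for EIF4G2 in LD hypothalamus and for EIF5 and RPLP0 in SD liver. Many exons had fractions for EIF4G2 in SD hypothalamus (31.7 in exon 2) and for EIF5 in LD liver (473.8 in exon 1) and SD hypothalamus (184.7 in exon 1). Fractions were also present for EIF4G2 in LD liver, where 2 transcripts share exons. Exon 3 of the assembled transcript held 449.6 aligned bases and the same exon of the reference transcript 74.9, which do not add up to a whole number. The part of divided reads in the EIF4G2 and EIF5 ratios was not tested.

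Few other genes of the translation machinery were listed, in libraries that together list 278 gene symbols of any kind. The share listed of all annotated genes was not computed. Whether translation genes were listed more sparsely than other genes was thus not tested. Of 373 other gene symbols in 8 lists of translation genes, 4 were listed in LD liver, 3 in LD hypothalamus, 1 in SD liver and 0 in SD hypothalamus, and 5 in any library. Of 53 symbols of the large cytosolic ribosomal subunit only RPLP0 was listed, and of 35 of the small subunit only RPS3. None of 79 mitochondrial ribosomal proteins, 40 aminoacyl-tRNA synthetase symbols or 49 ribosome biogenesis genes was listed in any library. Of 47 initiation factor symbols 4 were listed, and of these only EIF1 lies outside the 5 chosen genes. Of 51 symbols in the list of translation regulators and poly(A) binding 3 were listed, PAIP2, OAZ1 and ATF4, all of them outside the chosen genes. OAZ1 and ATF4, described below, are not themselves parts of the translation machinery. Genes on loci without a symbol could not be matched.

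OAZ1, the antizyme that restrains polyamine synthesis and is itself made through a ribosomal frameshift, stood on 1 reference transcript of 1670 bases in the 3 libraries that list it. It had 253 FPKM in LD liver, 187 FPKM in LD hypothalamus and 79.9 FPKM in SD liver. The log2 ratio was 1.65 in LD liver against SD liver and 0.43 in LD liver against LD hypothalamus. Like EIF4A2, OAZ1 was thus at least 2-fold higher in LD liver than in SD liver, as were 18.9% of all 53 loci. The log2 ratio of EIF4A2 was 0.42 over exons 2 to 5 and 4.11 over exons 7 to 10, and the exons of OAZ1 were not compared.

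PAIP2, an inhibitor of the poly(A)-binding protein, had 21.7 FPKM in LD liver and 9.99 FPKM in LD hypothalamus, a log2 ratio of 1.05 on 1447 and 497 aligned bases. The remaining genes were listed once. EIF1, which guards the choice of start codon, had 17.4 FPKM in LD liver on 102 aligned bases, and PELO, a factor that rescues stalled ribosomes, had 16.9 FPKM there. ATF4, a transcription factor whose translation rises when eIF2 is phosphorylated, had 14.9 FPKM in LD hypothalamus. No gene of the lists outside the 5 was listed in SD hypothalamus.

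Genes with the most similar pattern were sought among loci with a symbol listed in exactly the same libraries, by the root mean square difference of log2(FPKM + 1) after centring each gene. For EIF4A2, over 4 libraries and 5 candidates, they were ACTB (0.43), LRRC8D (0.55) and SLC25A6 (0.85). ACTB, at a locus that joins more than 1 reference gene, had 223 FPKM in LD liver, 218 FPKM in LD hypothalamus, 124 FPKM in SD liver and 285 FPKM in SD hypothalamus. Its order thus differs from that of EIF4A2 in that SD hypothalamus was the highest. SLC25A6 was highest in SD liver (74.6 FPKM), where EIF4A2 was lowest. For EIF4G2, over 3 libraries and 5 candidates, they were YWHAQ (0.32), DSTN (0.51) and DYNLL2 (0.86). YWHAQ had 89.8 FPKM in LD liver, 77.1 FPKM in LD hypothalamus and 6.32 FPKM in SD hypothalamus, the same order as that of EIF4G2 on its 16 common exons. On the whole locus, the measure used for likeness, EIF4G2 was nearly equal in LD liver (269 FPKM) and LD hypothalamus (270 FPKM). For EIF5, over 3 libraries and 7 candidates, the nearest was MDH1 at 0.67, followed by TPI1 (1.01) and ZHX1 (1.01). MDH1 had 30.9 FPKM in LD liver, 74.9 FPKM in SD liver and 40.1 FPKM in SD hypothalamus. On the whole locus EIF5, like MDH1, was highest in SD liver (123 FPKM), and it had 92.2 FPKM in LD liver. MDH1 was lowest in LD liver, where EIF5 was highest on its common exons (217 FPKM), a different measure. With so few libraries and candidates, likeness says little beyond the listed values.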

How the data were processed

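Libraries were made for pyrosequencing, per the labels' protocols. Per the file headers, the authors assembled 1 trimmed alignment per library with StringTie 1.3.3b, with gene models of Ensembl 89 for the collared flycatcher (FicAlb_1.4) as a guide. Which aligner was used is not given in the sources used here. Per transcript, the deposited files hold coverage, FPKM and TPM, with coverage alone per exon, inside a text field, so the unit of that field was recorded as other. The aligned megabases follow from the ratio of FPKM to coverage, 1 constant per file. Exon FPKM is exon coverage times that constant. No counting interval can be given without read counts, which were not used here.

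Transcripts were joined into 750 loci by a shared reference gene or by an overlap of their exons (1 base or more, same strand). FPKM was summed per locus, and log2 ratios used a pseudocount of 1, for loci listed in both libraries. They understate changes of low genes. A locus was called at 2-fold. For EIF4G2 and EIF5 the planned value by symbol gave no ratio, since no comparison lists the symbol in both libraries, and the joined locus was used. Strand is not stated to be kept. The genes and lists were chosen with earlier results of these data known. The genes named are the 5, every listed gene of the 8 translation lists and the 3 nearest patterns for each gene listed in more than 1 library. APOA1 and ALB are named as markers, and SNORD97 and OLFM1 were named after their values were seen. Scripts in Python 3.11.15 were tested on simulated files. No sequences are printed, as no file used here holds them.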

Additional observations from a re-analysis of the deposited data

Results flagged for a closer look

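EIF4A2 was lower under the liver label than under the hypothalamus label in the libraries labelled SD, and alike under both in those labelled LD. Its log2 FPKM ratio of liver over hypothalamus was -0.91 in the libraries labelled SD and 0.12 in those labelled LD. The difference between these ratios was not tested, since each rests on 1 library per group. Over exons 2 to 5 the ratios were -0.22 in SD and -0.10 in LD, both below 0, and over exons 7 to 10 they were -3.12 in SD and -0.002 in LD.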

How the results depend on the processing

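Of 80 alternative values of the ratios of EIF4A2, EIF4G2 and EIF5, 73 stayed within 1.5-fold of the value given, a limit used because there are neither replicates nor counts. TPM, pseudocounts of 0.1 and 10, at least 150 aligned bases, centring and the highest transcript alone were among the settings that moved none of them further. Many of the 80 values could not move. EIF4A2 stands on 1 transcript of the same model in every library. Its highest transcript, joined locus, same-length and shared-exon settings thus return the value given. The limit of 150 aligned bases cannot change a ratio of these genes either. The ratio of EIF4A2 moved with the exons taken, to 0.42 (exons 2 to 5) and 4.11 (exons 7 to 10) in LD liver against SD liver, and to -0.22 and -3.12 in SD liver against SD hypothalamus. EIF5 in LD liver against SD liver was 2.24 in aligned bases per megabase and 0.75 on shared exons, and in SD liver against SD hypothalamus it reversed to -0.95 in aligned bases per megabase. The transcript of 534 bases against 1 of 3405 bases sets these differences in scale. The shared-exon and exon-range settings were chosen after seeing the data. Of 24 alternative counts of loci at least 2-fold apart, 22 stayed within 1.5 times. The others were 9 in place of 14 in SD liver against SD hypothalamus with a pseudocount of 10, and 25 in place of 38 in LD liver against LD hypothalamus with at least 150 aligned bases. No paired analysis was possible because each group has 1 library, and no library could be left out. Values on few aligned bases, such as those of EIF1 (102) and SNORD97 (49 in LD liver and 99 in LD hypothalamus), are limited by depth.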

Other observations

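Uneven coverage along a transcript was also seen outside the translation genes. In LD hypothalamus OLFM1, a secreted glycoprotein of neurons, had the lowest log2 ratio of coverage in the 3′ part over the 5′ part of its internal exons among 27 transcripts, -2.12, against 0.82 for the same transcript in LD liver. A second OLFM1 transcript, which shares reads with it, stood at -1.83 in LD hypothalamus. OLFM1 was chosen after its values were seen.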
